A study of Mus musculus with 16 samples.

Results

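Transcripts of 39 genes that build the sarcomere and its Z-disc were followed in HL-1 cells. The set is a list of gene symbols: thick-filament myosins and their binding protein (9 genes), thin-filament actins, troponins, tropomyosins and end-capping proteins (11), titin and the M-band proteins (3), core Z-disc proteins (9), proteins associated with the Z-disc and I-band (5), and an intermediate filament with its chaperone (2). Of these, 37 could be matched to a probe through its RefSeq accession and 36 were bright enough to test, of 17771 genes tested in all. No probe was matched for Myh7b, a slow-type myosin heavy chain, or for Mylk3, the cardiac myosin light chain kinase. Xirp2, a Xin repeat protein of muscle, had 3 probes that were well above background on 1, 2 and 0 of 16 arrays, so it was not tested.

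HL-1 is a female mouse line of atrial cardiomyocyte origin that divides in culture and keeps parts of the contractile phenotype. The cells stayed 6 h with 100 nM of the glucocorticoid dexamethasone together with 10 nM of the estrogen 17β-estradiol (Dex+E2), with 100 nM dexamethasone (Dex), with 10 nM estradiol (E2), or with PBS as vehicle. Total RNA of each was read on 4 one-colour arrays, 16 in all, which the series describes as independent experiments. All 4 groups share the same culture medium, and all values come from 1 cell line in culture.

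The sarcomere is the repeating unit of the contractile apparatus. Myosin thick filaments, anchored at the M-band, slide along actin thin filaments, anchored at the Z-disc, and titin spans the distance between them. Atrial and ventricular muscle use different isoforms of the same parts. In the mouse, Myl4 and Myl7 encode the atrial light chains, Myl2 and Myl3 the ventricular ones, Myh6 the fast alpha heavy chain and Myh7 the slow beta heavy chain of the fetal and stressed ventricle. Z-disc proteins such as Csrp3 and Myoz2 also bind signalling molecules, among them calcineurin in the case of Myoz2. Levels below are log2 signals minus the 75th percentile of the same array, so that 0 means a spot as bright as that percentile. Probes differ in binding strength, so levels of different genes are not ranked against each other.

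The 75th percentile of an array lay at 402 to 557 intensity units, 58.6% to 65.6% of its probes were well above background, and 0 spots were saturated. Precision is limited by the number of arrays. Vehicle 1 stood apart from the rest, with a highest correlation across genes of 0.98 with any other array, where the other arrays reached 0.989 to 0.997. The arrays lay on 4 slides of 4 arrays, each scanned at once: Dex 1 and 2 with Vehicle 1 and 2 on slide 1, E2 1 and 2 with Vehicle 3 and 4 on slide 2, Dex+E2 1 and 2 with Dex 3 and 4 on slide 3, and Dex+E2 3 and 4 with E2 3 and 4 on slide 4. On every slide 1 label held positions 1 and 2 and another 3 and 4, so position and label cannot be told apart within a slide. Over the 16 arrays Dex and E2 lay on either side, Dex+E2 always at positions 3 and 4 and vehicle always at 1 and 2. Per1, a clock gene that glucocorticoids induce, went against the label of 4 arrays. It lay between 1.75 and 1.99 on Dex+E2 1, 2 and 4, Dex 1, 2 and 4, E2 4 and Vehicle 4, and between -1.29 and -0.75 on the other 8 arrays, which include Dex+E2 3 and Dex 3. Arrays are therefore named by their label, and no direction below is known to be that of a hormone.

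The atrial light chains of the thick filament were read at even levels. Myl7, the atrial regulatory light chain, lay between 7.62 and 8.09 with a median of 7.88 over the 16 arrays. Myl4, the atrial essential light chain, lay between 6.11 and 6.45 with a median of 6.34, and its other probe between 6.05 and 6.43. Both genes stayed within a narrow band, whatever the label, with spans of 0.47 and 0.34. The median span over all genes tested was 0.66. Mybpc3, the cardiac myosin-binding protein C, spanned more, between 5.65 and 6.58 with a median of 6.14.

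Of the ventricular light chains, Myl2, the regulatory one, lay between -3.65 and -2.84 with a median of -3.21, well above background on 16 of 16 arrays. Myl3, the essential light chain shared by ventricle and slow skeletal muscle, lay between 3.61 and 4.38 with a median of 3.96 on its brighter probe, but between -2.82 and -2.30 on its dimmer one. The level of Myl3 therefore rests on the choice of probe. The heavy chain Myh6, listed here with the atrial isoforms, spanned more than the atrial light chains. It lay between 4.79 and 6.01 with a median of 5.62, and between 3.26 and 4.52 on its dimmer probe. Myh7 lay between 0.40 and 2.50 with a median of 1.43, the widest span of any thick-filament gene tested. Myh6 and Myh7 are near-identical neighbours, and cross-hybridisation between them or with other myosin heavy chains could not be checked without the probe sequences.

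Thin-filament genes were present in their cardiac, slow and skeletal forms. The cardiac actin gene Actc1 lay between 6.06 and 6.52 (median 6.38) and the skeletal actin gene Acta1, which is also expressed in fetal heart, between 3.57 and 4.00 (median 3.85). Tnnt2, cardiac troponin T, lay between 7.13 and 7.44 (median 7.33), and Tnnt1, the slow skeletal form, between 0.92 and 1.39 (median 1.23). Each form kept nearly the same level on all 16 arrays. Tnni3, cardiac troponin I, lay between 6.55 and 7.07 (median 6.75) on the 15 arrays where its spot was used, Dex 3 being the missing one. Tnni1, the slow troponin I of fetal heart, lay between 3.85 and 4.27 (median 4.07), and Tnnc1, troponin C of heart and slow muscle, between 2.11 and 2.72 (median 2.47).

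Tropomyosin and the filament-end proteins completed the thin filament. Tpm1 lay between 5.67 and 6.01 (median 5.90) on its brightest probe, and its 4 probes, which match 3 transcript accessions, had medians from -3.42 to 5.90. Tpm2, a beta-type tropomyosin, lay between 4.67 and 5.48 (median 5.33). Tmod1, which caps the pointed end, lay between 1.79 and 2.30 (median 2.20), and Lmod2, which lengthens the filament from that end, between -1.50 and -0.63 (median -1.12). None of the 11 thin-filament genes spanned more than the 0.88 log2 units of Lmod2 on the 16 arrays.

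The titin and M-band group moved more. Ttn, the giant spring protein, lay between 2.08 and 3.86 (median 2.56), Myom1, the main M-band crosslinker, between 2.01 and 3.04 (median 2.74), and Myom2, the M-band protein of fast and adult cardiac fibres, between 0.07 and 2.09 (median 1.39). Myom2 had the widest span of these 3 genes.

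At the Z-disc, Actn2, the alpha-actinin that crosslinks actin, lay between 0.52 and 1.05 (median 0.74), Tcap, which caps titin, between 4.55 and 5.31 (median 5.01), and Nexn, nexilin, between 4.79 and 5.25 (median 4.97). The PDZ-LIM genes Ldb3 and Pdlim5 lay between 0.81 and 1.33 and between 1.76 and 2.09, and further probes matching other transcripts had medians of -4.26 for Ldb3 and of -2.96 to -1.26 for Pdlim5. Myoz1, the calsarcin of fast skeletal muscle, lay between -4.49 and -3.73, and Myoz2, the calsarcin of heart and slow muscle, between 1.71 and 3.35. Csrp3, muscle LIM protein, lay between 0.60 and 1.63, and Nebl, nebulette, between -2.40 and -0.98. Myoz2 was the core Z-disc gene with the widest span. Among the associated proteins, Ankrd1, a stretch-responsive ankyrin repeat protein, lay between 4.65 and 4.99, Xirp1 between 1.10 and 1.54, Fhl2, a LIM-only protein, between 5.79 and 6.35, and Smpx between 5.56 and 6.34. Des, the intermediate filament desmin, lay between 1.96 and 2.51, and Cryab, its small heat shock chaperone, between 4.72 and 5.18.

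**Figure D1:**
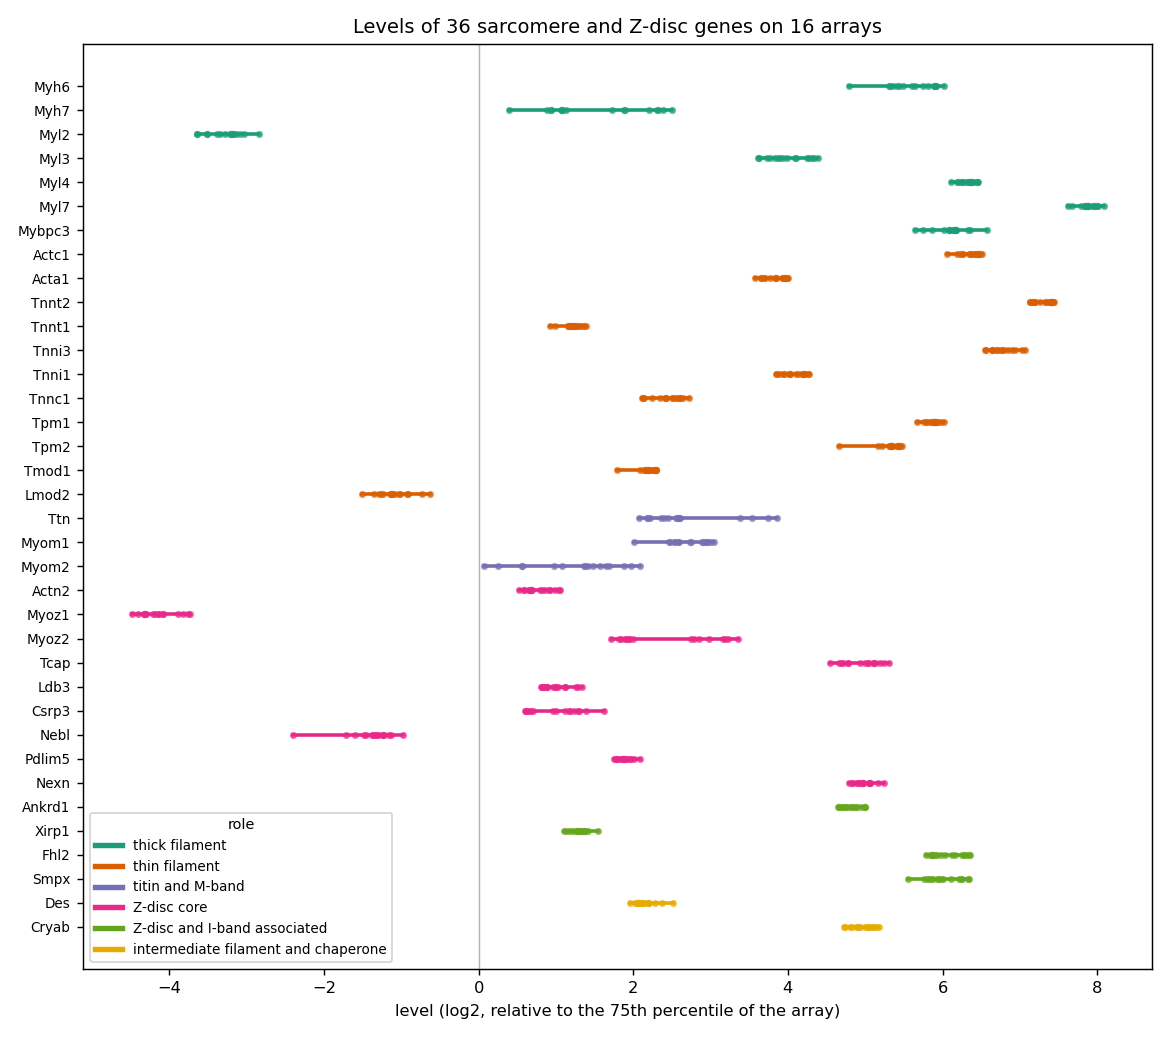
Each line spans the 16 arrays for 1 gene, with a point per array, on a horizontal axis of log2 level relative to the 75th percentile, coloured by role. The median span over all genes tested was 0.66, and the 36 genes lie on both sides of it. Myom2, Myh7, Ttn and Myoz2 have the longest spans.

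Titin's span came from 4 arrays. On the probe tested, Ttn was at 3.38 on Dex+E2 1, 3.75 on E2 1, and 3.54 and 3.86 on Vehicle 2 and 3, against 2.08 to 2.60 on the other 12 arrays. All 8 titin probes read these same 4 arrays above the other 12, among them probes that match different titin transcripts. The 4 arrays carry 3 labels, lie on 3 slides and fall in both Per1 sets. These arrays were picked for their titin level, so the gap is a description, and its cause was not tested.

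**Figure D2:**
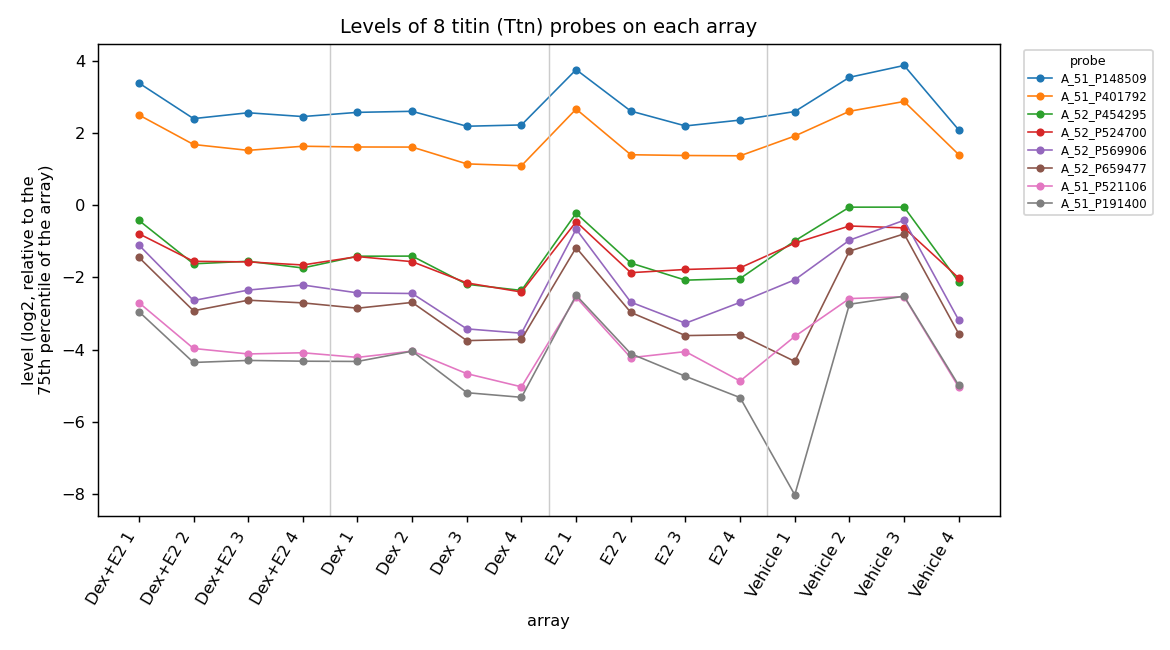
Lines join the log2 level of each of the 8 Ttn probes over the 16 arrays, with labels in the order Dex+E2, Dex, E2, Vehicle. All 8 lines peak on Dex+E2 1, E2 1, Vehicle 2 and Vehicle 3.

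The effect of each hormone label was asked with limma over all 16 arrays, with labels of 4 arrays each and p-values adjusted over all 17771 genes. None of the 36 members passed in any of the 6 comparisons, where the share called over all genes was 0% in each. Against vehicle, unadjusted p-values under 0.05 were held by 4 members for the label Dex+E2 (989 of all genes, 5.57%), 4 for Dex (1933, 10.9%) and 2 for E2 (682, 3.84%). Dex+E2 set against Dex gave 0 such members (567 of all genes, 3.19%), Dex+E2 set against E2 gave 2 (714, 4.02%), and the interaction of both hormones gave 2 (661, 3.72%). Comparisons with vehicle share its arrays. The median difference over the members was 0.0079 for Dex+E2 (20 of 36 positive, all genes -0.02), 0.05 for Dex (22 positive, all genes -0.03) and 0.06 for E2 (26 positive, all genes -0.02), each against vehicle. It was -0.0067 for Dex+E2 against Dex (18 positive, all genes 0.01), -0.05 for Dex+E2 against E2 (13 positive, all genes -0.0023) and -0.06 for the interaction (11 positive, all genes 0.03). A further 60 sarcomere genes outside the list, of which 51 were tested, held 0 called genes in all 6 comparisons, where all genes gave 0% in each, and between 0 and 2 of them had an unadjusted p under 0.05.

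**Figure D3:**
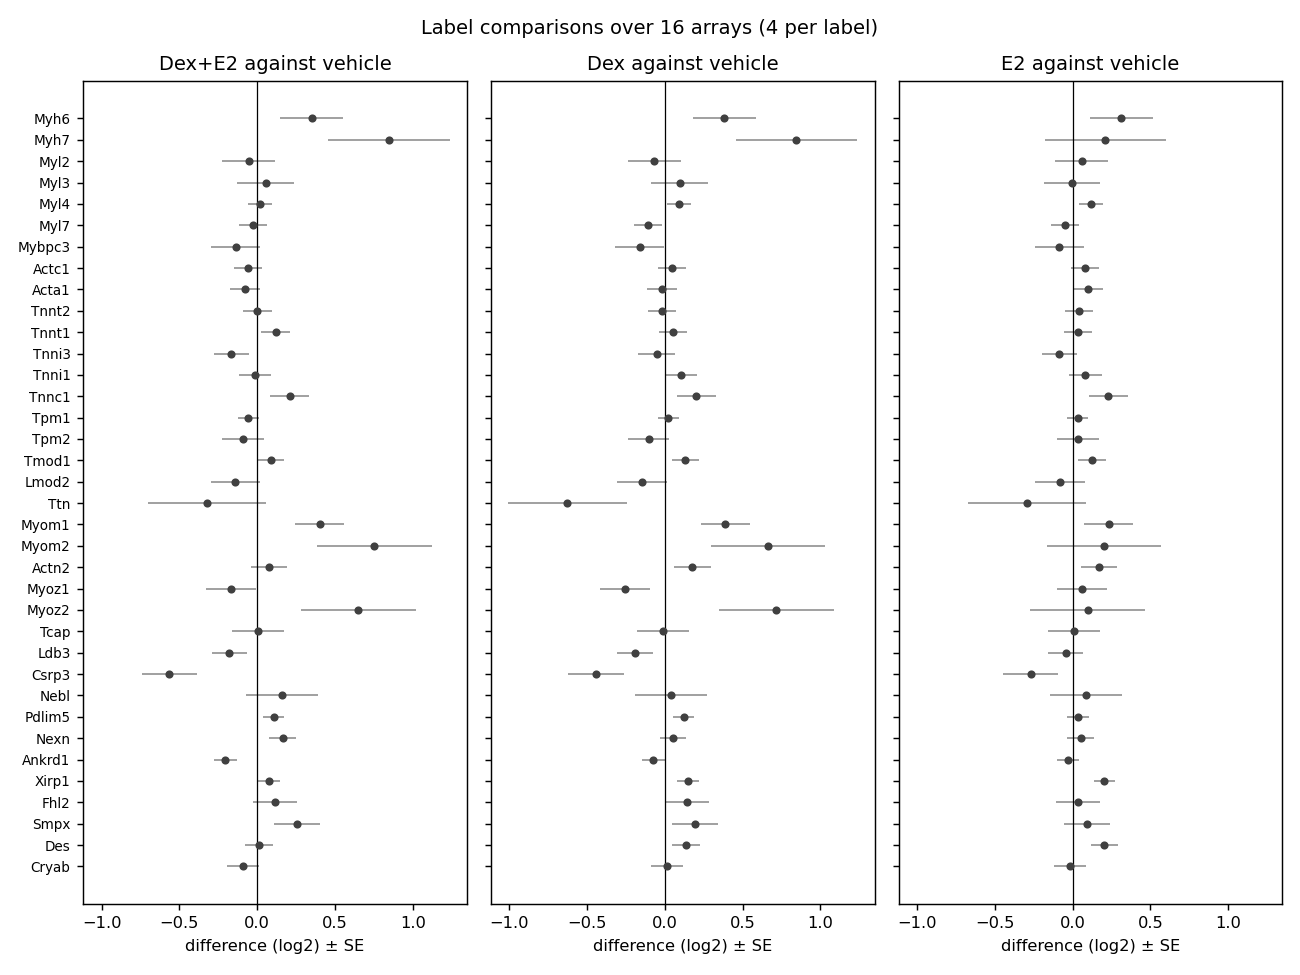
Points are limma log2 differences with their standard errors for 36 genes, for Dex+E2, Dex and E2 against vehicle, from 4 arrays per label. The widest bars belong to Myh7, Myom2, Myoz2 and Ttn, and none of the differences passed the adjusted threshold.

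Csrp3 had the smallest p of any member. It read 0.65, 0.62, 1.17 and 0.61 on the Dex+E2 arrays, 0.68, 0.60, 1.30 and 0.96 on the Dex arrays, 1.18, 1.24, 1.11 and 0.70 on the E2 arrays and 1.39, 1.63, 1.29 and 1.01 on the vehicle arrays. The label ranges overlapped through Dex+E2 3 and Dex 3, which read like vehicle, and through Vehicle 4, which read low. The difference was -0.56 ± 0.18 (SE, n = 4 each) for Dex+E2 against vehicle (limma adjusted p = 0.715) and -0.44 ± 0.18 for Dex against vehicle (adjusted p = 0.451).

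Myom1 read 2.95, 2.90, 2.53 and 3.04 on the Dex+E2 arrays, 2.96, 2.93, 2.59 and 2.88 on the Dex arrays, 2.73, 2.53, 2.47 and 3.00 on the E2 arrays, and 2.47, 2.01, 2.58 and 2.75 on the vehicle arrays. Again array 3 of the Dex labels was low and array 4 of the E2 and vehicle labels was the highest of its label. The difference from vehicle was 0.40 ± 0.16 (SE) for Dex+E2 and 0.39 ± 0.16 for Dex (limma adjusted p = 0.715 and 0.451). Myh7 read 2.50, 2.31, 1.12 and 1.73 on Dex+E2, 2.38, 2.31, 1.07 and 1.90 on Dex, 1.08, 0.94, 0.88 and 2.21 on E2, and 1.06, 0.40, 0.94 and 1.88 on vehicle. It differed by 0.84 ± 0.39 (SE) between Dex and vehicle (limma adjusted p = 0.455), with all 4 labels overlapping.

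Ankrd1 was at 4.69 ± 0.04 on Dex+E2, 4.82 ± 0.13 on Dex, 4.86 ± 0.07 on E2 and 4.89 ± 0.12 on vehicle arrays (SD, n = 4 each). The 4 Dex+E2 arrays read 4.67, 4.65, 4.72 and 4.72, and the vehicle arrays 4.99, 4.76, 4.99 and 4.84, without overlap. Dex arrays read 4.67, 4.83, 4.99 and 4.80 and E2 arrays 4.88, 4.88, 4.93 and 4.77. Its differences were -0.20 ± 0.07 against vehicle, -0.13 ± 0.07 against Dex and -0.18 ± 0.07 against E2 (limma adjusted p = 0.715, 1 and 1).

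The E2 label added 3 more genes, and the interaction also took in Myl4, given below. Xirp1 read 1.29, 1.34, 1.10 and 1.32 on Dex+E2, 1.41, 1.38, 1.27 and 1.28 on Dex, 1.54, 1.37, 1.28 and 1.38 on E2, and 1.25, 1.17, 1.20 and 1.13 on vehicle. Its E2 arrays lay above its vehicle arrays without overlap, by 0.20 ± 0.07 (SE, limma adjusted p = 0.979), and its interaction was -0.28 ± 0.10 (adjusted p = 0.999). Des read 2.02, 2.14, 2.10 and 2.04 on Dex+E2, 2.28, 2.19, 2.21 and 2.13 on Dex, 2.51, 2.37, 2.07 and 2.11 on E2, and 2.19, 2.07, 2.04 and 1.96 on vehicle. It differed by 0.20 ± 0.09 between E2 and vehicle and by -0.33 ± 0.12 in the interaction (limma adjusted p = 0.979 and 0.999), and its E2 level rested on E2 1 and 2. Tnnc1 read 2.43, 2.58, 2.42 and 2.50 on Dex+E2, 2.72, 2.64, 2.41 and 2.12 on Dex, 2.51, 2.60, 2.34 and 2.56 on E2, and 2.60, 2.24, 2.11 and 2.14 on vehicle. Its difference between E2 and vehicle was 0.23 ± 0.13 (limma adjusted p = 0.979), and Vehicle 1 lay above all E2 arrays but E2 2.

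Nexn read 5.16, 5.25, 4.97 and 4.92 on Dex+E2 arrays and 5.06, 5.05, 4.91 and 4.83 on Dex arrays, a difference of 0.11 ± 0.09 (SE, limma adjusted p = 1). Its E2 arrays read 4.95, 4.87, 4.97 and 5.07, and its vehicle arrays 5.05, 4.83, 4.79 and 4.97. Myl4 read 6.27, 6.30, 6.35 and 6.20 on Dex+E2, 6.38, 6.44, 6.40 and 6.18 on Dex, 6.45, 6.37, 6.33 and 6.36 on E2, and 6.45, 6.11, 6.23 and 6.26 on vehicle. Its interaction was -0.19 ± 0.11 (SE, limma adjusted p = 0.999).

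Within single slides the labels were set against each other with 2 arrays each. On slide 1, 45 of 17771 genes were called (0.253%, with 0.219% higher and 0.0338% lower) between Dex and vehicle, and 2 were members, both higher. Myoz2 read 3.35 and 3.19 on Dex 1 and 2 against 2.00 and 1.81 on Vehicle 1 and 2, a difference of 1.36 ± 0.10 (SE, n = 2 each, limma adjusted p = 0.049). Myom2 read 1.36 and 1.37 against 0.26 and 0.07, a difference of 1.20 ± 0.10 (limma adjusted p = 0.049). These calls rest on single arrays: 0 members were called without Dex 1 or without Dex 2, 20 without Vehicle 1 and 6 without Vehicle 2. Over all genes the same refits called 0%, 0%, 37.6% and 8.55%, so the 20 and 6 members stand among many genes called at once. On slides 2, 3 and 4, 0 of 36 members and 0% of all genes passed, while unadjusted p-values under 0.05 were held by 9, 11 and 0 members, and by 8.16%, 12.2% and 3.65% of all genes. On slide 1 they were held by 12 members and 15.8% of all genes. With slide as a block in the fit over all arrays, 0 members and 0% of all genes passed in each of the 6 comparisons. Unadjusted p-values under 0.05 were then held by 10 members for Dex+E2 (5.51% of all genes), 6 for Dex (9.85%) and 9 for E2 (8.09%) against vehicle, 6 for Dex+E2 against Dex (11.8%), 0 for Dex+E2 against E2 (2.58%) and 4 for the interaction (4.91%).

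The 4 arrays that go against their label in Per1 are Dex+E2 3, Dex 3, E2 4 and Vehicle 4. Without them, 3 arrays per label remained, and limma called 5 members between Dex and vehicle, where it called 2.43% of all genes (1.34% higher, 1.09% lower). The arrays were left out by their Per1 level, so Dex or Dex+E2 against vehicle here repeats the split by Per1. The p-values below are not free of that choice. On the log2 scale Myoz2 was higher on the Dex arrays by 1.27 ± 0.15 (SE, n = 3 each, limma adjusted p = 0.0011) and Myh7 by 1.39 ± 0.21 (0.00522). Myom2 was higher by 1.07 ± 0.23 (0.0357) and Myom1 by 0.57 ± 0.13 (0.0413), while Csrp3 was lower by 0.69 ± 0.11 (0.00566). Between Dex+E2 and vehicle the same 5 members were called, where all genes gave 2.59% (1.48% higher, 1.11% lower). Myoz2 differed by 1.20, Myh7 by 1.38, Myom2 by 1.17 and Myom1 by 0.61, and Csrp3 by -0.80 (limma adjusted p = 0.00152, 0.00527, 0.0221, 0.0298 and 0.00196).

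Between Dex+E2 and E2 the remaining arrays gave 3 called members, where all genes gave 1.93% (1.26% higher, 0.67% lower): Myoz2 at 1.12 and Myh7 at 1.21, both higher, and Csrp3 at -0.55, lower (limma adjusted p = 0.00227, 0.0118 and 0.0218). The interaction, E2 against vehicle, and the pair Dex+E2 and Dex gave 0 called members and 0% of all genes, with 1, 2 and 1 members at an unadjusted p under 0.05, where all genes gave 4.24%, 5.64% and 2.43%. For Dex+E2 against Dex, Myh7 differed by -0.01 ± 0.21 and Myoz2 by -0.07 ± 0.15 (SE), and for E2 against vehicle Myh7 differed by 0.17 ± 0.21 and Myoz2 by 0.09 ± 0.15. The arrays were left out by a measured level, so these p-values are not free of that choice. All remaining Dex and Dex+E2 arrays had the higher Per1 level, and all remaining E2 and vehicle arrays the lower one. Comparing the former with the latter therefore repeats the split by Per1. The refits below reuse the same arrays and are not independent support. When 1 more of the 12 arrays was left out, Myh7, Myoz2 and Csrp3 were called in 12 of 12 refits for both Dex and Dex+E2 against vehicle, Myom1 in 4 and 6, and Myom2 in 5 and 7. For Dex+E2 against E2, Myoz2 was called in 12, Myh7 in 9 and Csrp3 in 7 of 12 refits. Over all genes these refits called 1.13% to 3.17% for Dex against vehicle, 1.41% to 3.85% for Dex+E2 against vehicle and 1.09% to 2.23% for Dex+E2 against E2.

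The arrays were next described by their Per1 level alone, 8 with more Per1 and 8 with less, with no test because the sets come from a measured value. Of the 36 members, 4 did not overlap between the sets, 3 higher and 1 lower on the arrays with more Per1. Over all genes 726 did not overlap (4.09%), 2.02% higher and 2.07% lower. The median difference of set medians was 0.06 over the members, with 21 of 36 positive, and -0.01 over all genes, with 45.7% positive. By role, the sets were apart for 1 of 7 thick-filament genes, 0 of 11 thin-filament genes, 1 of 3 titin and M-band genes, 2 of 9 core Z-disc genes, 0 of 4 associated genes and 0 of the 2 intermediate filament and chaperone genes.

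Myh7, the slow heavy chain, lay between 1.73 and 2.50 (median 2.26) on the arrays with more Per1 and between 0.40 and 1.12 (median 1.00) on those with less, a 2.39-fold difference of medians. Its other probe did not overlap either, with a difference of 1.18 on the log2 scale. Myoz2 lay between 2.74 and 3.35 (median 3.07) against 1.71 and 2.00 (median 1.90), 2.25-fold. Neither gene had an array of one set within the range of the other, whatever its label. Myom1 lay between 2.75 and 3.04 (median 2.94) against 2.01 and 2.73 (median 2.53), 1.33-fold, and here only 0.02 log2 units separated the sets. Csrp3 lay between 0.60 and 1.01 (median 0.67) on the arrays with more Per1 and between 1.11 and 1.63 (median 1.26) on those with less, 1.51-fold lower.

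These 4 genes were picked as apart over all 16 arrays, and every slide holds arrays of both sets. Their order inside each slide was thus fixed by that choice. The sizes come from the same values that picked the genes and are a description only. The sets hold 1 to 3 arrays there. For Myh7 the differences of set medians were 1.61, 0.94, 1.24 and 0.96 on slides 1 to 4, for Myoz2 1.36, 0.95, 1.25 and 0.97, for Myom1 0.71, 0.17, 0.31 and 0.52, and for Csrp3 -0.87, -0.23, -0.64 and -0.48. Over the members, 10 of 36 were positive on all 4 slides and 8 on none. Among the 8 is Tnni3, which had no value on Dex 3 and so no difference on slide 3. The same counts were not made over all genes, so they cannot be read as particular to the members. Array 4 minus array 3, which differ in Per1 within the labels, gave for Myh7 0.60 in Dex+E2, 0.82 in Dex, 1.32 in E2 and 0.94 in vehicle, and for Myoz2 0.90, 0.88, 1.04 and 1.14 in the same order. These differences also come from the values that picked the genes, which fixed their sign. For Dex and Dex+E2 array 4 carries the Per1 level of its label, and for E2 and vehicle array 3 does. Array 2 minus array 1, which share a Per1 set, gave -0.19, -0.07, -0.14 and -0.67 for Myh7 and -0.06, -0.16, -0.05 and -0.19 for Myoz2. Array 4 was above array 3 in all 4 labels for 7 members, where all genes gave 9.66%, and below it for 5 members, where all genes gave 15.6%.

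**Figure D4:**
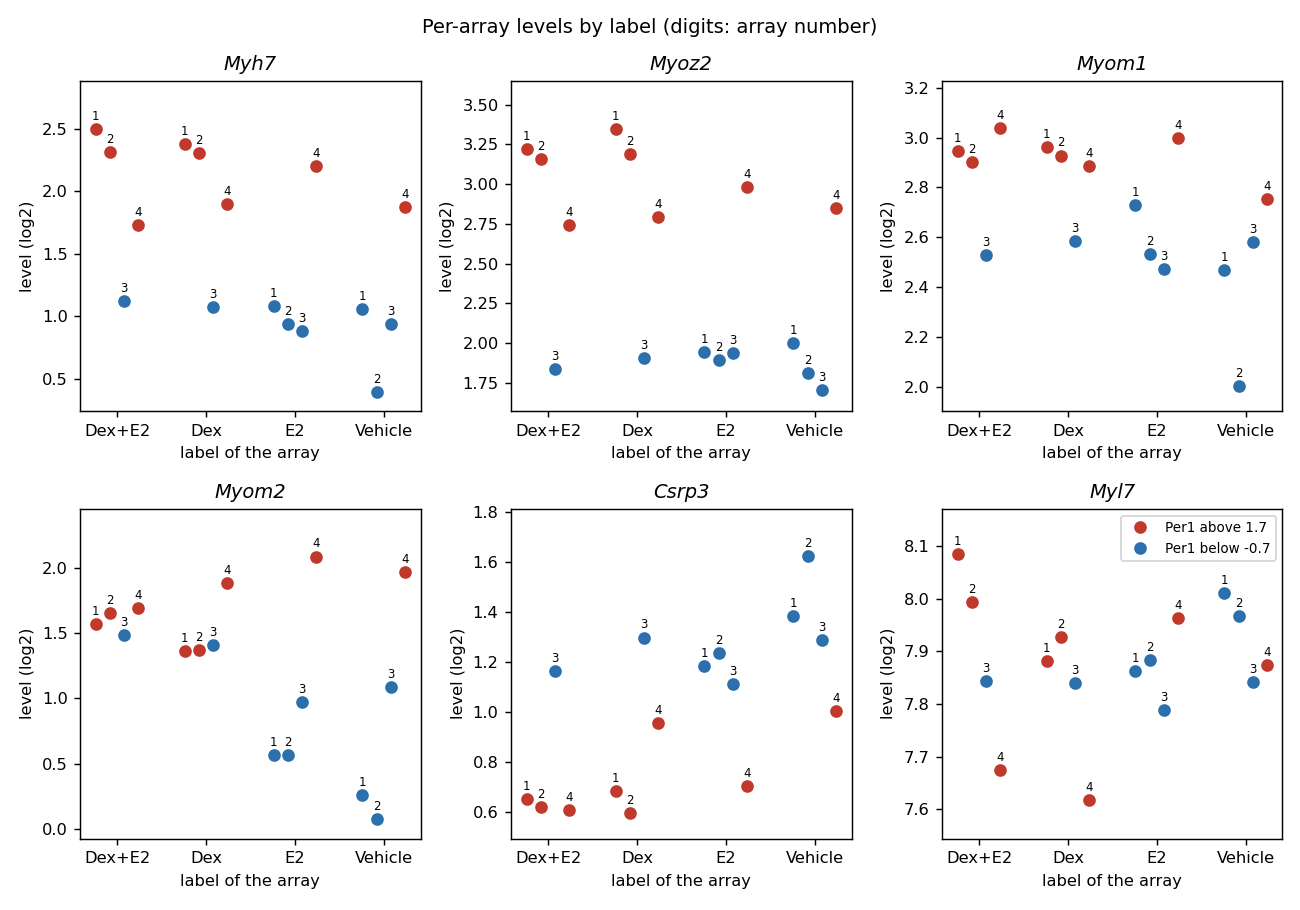
Points are log2 levels on each array, by label in the order Dex+E2, Dex, E2, Vehicle, with the array number above each point and colour for the Per1 set. Myh7, Myoz2, Myom1 and Csrp3 separate by colour, Myom2 and Myl7 do not.

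Myom2 overlapped. It lay between 1.36 and 2.09 (median 1.67) on the arrays with more Per1 and between 0.07 and 1.48 (median 0.77) on those with less, because Dex+E2 3 at 1.48 and Dex 3 at 1.41 lay above Dex 1 at 1.36 and Dex 2 at 1.37. Within each set the arrays numbered 3 or 4 read higher than those numbered 1 or 2, with medians of 1.93 and 1.47 on the arrays with more Per1, and 1.25 and 0.41 on those with less. Myh6 differed by 0.46 and overlapped through E2 1 at 5.91 alone. Fhl2 at 0.35 and Smpx at 0.36 were positive on all 4 slides and overlapped, and array 4 was below array 3 for both in Dex+E2 and Dex. In the other direction Myoz1 differed by -0.24, Ldb3 by -0.22, Myl2 by -0.20, Ttn by -0.17 and Ankrd1 by -0.16, each with overlap. Myoz1 and Ldb3 rest on the choice of probe, since their other probes differed by -1.14 and 0.14, also with overlap, and correlated with the tested ones at 0.15 and 0.12 over the 16 arrays. Of the 51 further sarcomere genes tested, 1 stood higher and 4 lower without overlap, where all genes gave 2.02% and 2.07%. Lrrc10, a leucine-rich repeat protein of the cardiac Z-disc, was the higher one at 1.54. The lower ones were Trim63, the muscle ubiquitin ligase MuRF1, at -0.51, Synpo2 at -0.40, Flnc at -0.31 and Klhl41 at -0.27.

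**Figure D5:**
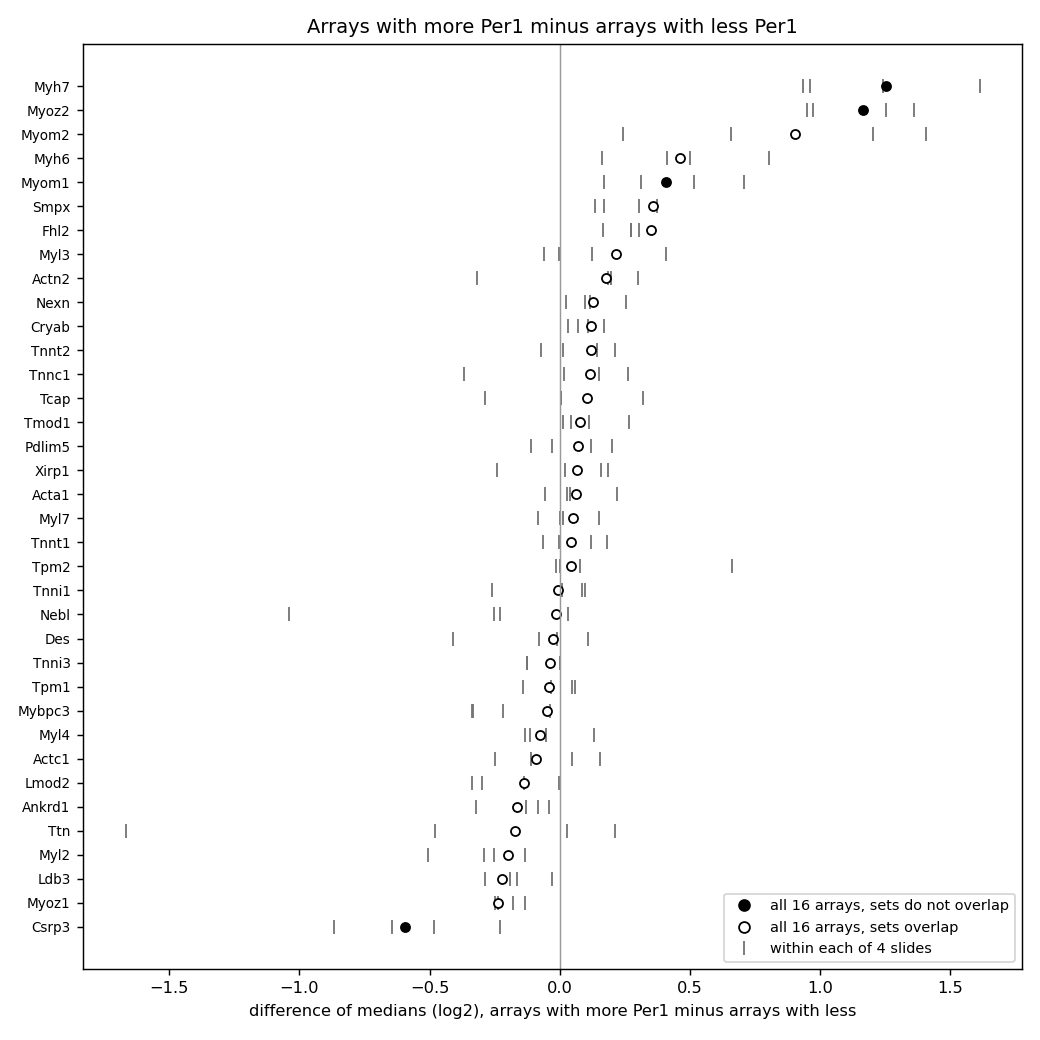
Circles are differences of set medians on the log2 scale for 36 genes, arrays with more Per1 minus arrays with less, filled where the sets do not overlap, and ticks are the same within each of 4 slides. Myh7 at 1.26 and Myoz2 at 1.17 lie at the top, Csrp3 at -0.59 at the bottom, and most genes lie near 0.

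Markers of other cells were read beside these genes, since in bulk RNA a change in cell types and a change in RNA per cell cannot be told apart. Summed linear levels of the 5 measured fibroblast markers were 29.0 to 47.9 on the arrays with more Per1 and 33.5 to 49.8 on those with less, and those of 4 smooth muscle markers 384 to 466 and 402 to 467. Postn, Tcf21 and Lum were below the filter, as were Pecam1, Cdh5 and Tek, leaving Kdr as the endothelial marker measured, which differed by 0.75 without overlap. Of the skeletal markers Myod1 and Myog were below the filter, and the summed level was 0.095 to 0.139 against 0.084 to 0.136. Of the leukocyte markers Ptprc and Lyz2 were below the filter, and Cd68 read 0.041 to 0.073 against 0.042 to 0.093. The 9 genes listed as atrial markers, among them Nkx2-5, Gata4 and Ryr2, summed to 319 to 408 against 350 to 399. In that list Sln was higher by 1.09 and Gja5 lower by 1.41, both without overlap. The 5 ventricular markers, which include Myh7, summed to 15.7 to 26.0 against 14.4 to 21.3. Linear sums mostly follow the brightest genes, Myl7 (median 7.88) and Myl4 (6.34) in the atrial list and Myl3 (3.96) in the ventricular one. The other Myl3 probe had a median of -2.51. In the smooth muscle list the brightest were Acta2 (8.12) and Tagln (7.18), and in the fibroblast list Col1a1 (5.01). Dimmer markers weigh little in these sums. The part of these cells in the differences above was not tested.

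For the 4 members that did not overlap, the 250 bases before the annotated start were read from RefSeq (build GRCm38.p6), printed here so that the shared and differing letters can be seen. Capitals mark letters of the motifs searched on both strands: TATATA (an A/T-rich core box), TATAAA (the usual TATA box), AGAACA (a glucocorticoid receptor half-site) and CATTCC (the MCAT element). The motifs were chosen after the sequences were seen.
Myh7, chr14:54994550-54994799, minus strand: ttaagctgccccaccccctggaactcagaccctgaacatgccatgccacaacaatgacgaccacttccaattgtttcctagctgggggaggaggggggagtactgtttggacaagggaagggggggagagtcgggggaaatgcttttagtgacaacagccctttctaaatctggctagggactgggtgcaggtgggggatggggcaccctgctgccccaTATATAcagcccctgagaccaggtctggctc
Myoz2, chr3:123034988-123035237, minus strand: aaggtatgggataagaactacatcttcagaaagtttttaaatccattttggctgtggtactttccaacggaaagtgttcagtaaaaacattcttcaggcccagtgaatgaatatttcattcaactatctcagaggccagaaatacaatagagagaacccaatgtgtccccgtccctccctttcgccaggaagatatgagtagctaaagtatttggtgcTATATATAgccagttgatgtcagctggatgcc
Myom1, chr17:71019307-71019556, plus strand: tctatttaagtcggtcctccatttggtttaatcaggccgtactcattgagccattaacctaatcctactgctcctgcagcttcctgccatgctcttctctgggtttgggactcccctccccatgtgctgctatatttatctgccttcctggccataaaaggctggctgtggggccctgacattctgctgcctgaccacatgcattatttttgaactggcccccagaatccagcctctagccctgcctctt
Csrp3, chr7:48848052-48848301, minus strand: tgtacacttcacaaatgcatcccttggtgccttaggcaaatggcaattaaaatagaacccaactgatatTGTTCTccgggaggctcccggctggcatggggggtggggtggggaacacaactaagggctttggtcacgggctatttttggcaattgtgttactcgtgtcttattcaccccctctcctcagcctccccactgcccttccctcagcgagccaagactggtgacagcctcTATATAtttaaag
Myh7 held TATATA at 31 to 26 bases before its start. Myoz2 held it at 32 to 27 and at 30 to 25, matches that overlap each other. Csrp3 held it at 13 to 8, and AGAACA on the opposite strand at 181 to 176. The Myom1 window held none of these. Among 32851 windows of this length TATATA occurred in 5.25%, AGAACA in 16.1%, CATTCC in 12.6% and TATAAA in 12.4%. Of 45 windows of 33 members, TATATA occurred in 8 (17.8%), AGAACA in 9 (20.0%), CATTCC in 12 (26.7%) and TATAAA in 5 (11.1%). Myh7 and Csrp3 each have another annotated start. Of their windows the ones printed are those that hold TATATA, a choice made after the matches were seen. The other Myh7 window held no TATATA but CATTCC on the opposite strand at 201 to 196, and the other Csrp3 window held none of the 4 motifs. A match is a description of these letters only.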

How the data were processed

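Cy3-labelled cRNA from total RNA was hybridised to one-colour Agilent arrays, then scanned. The submitters' processing notes name Agilent Feature Extraction version 12. The deposited processed signal is, per the file headers, an intensity on a linear scale after background subtraction. The deposited table of the whole series holds log2 values, per the file's own values, with 16 columns of identical sorted values (median 4.70, lowest r with its own array 0.999). How it was made is not given in the sources used, and it served as an alternative.

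Outlier-flagged spots were left out, spots of a probe averaged, and log2 of the processed signal was taken minus the 75th percentile of the array. Probes well above background on all 4 arrays of a label were kept (24453 of 41174), with the brightest per gene. Accessions matched RefSeq symbols of assembly GRCm38.p6 for 28223 probes. The fit was limma 3.58.1 (lmFit, eBayes with a trend) in R 4.3.3, with label as the only term, Benjamini-Hochberg adjusted p under 0.05 over all genes, two-sided, checked on simulated data. Grouping came from the labels. Alternatives were normexp (on the median spot signal), quantile scaling, the series table, other filters, probe averaging, slide or array number as a block, single slides, and arrays left out.

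Members, lists and tests were chosen with earlier results of these data known. Levels of all tested members are given by range. Values by array or set are given for isoform-list members, the 3 members with the smallest p in each comparison, and members apart between Per1 sets or called within a slide. Ttn by array, and Ttn, Fhl2, Smpx and Ldb3 between the Per1 sets, were added after their values were seen.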

Additional observations from a re-analysis of the deposited data

Results flagged for a closer look

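In 80 sets of 4 arrays (20 genes, each with its 4 labels), 5 had 1 array far from the other 3, judged by its gap over the range of the set against Dixon's critical value, where chance flags about 5% of sets. Of the 5 readings, 4 come from arrays that go against their label in Per1. The genes screened include Myh7, Myoz2 and Csrp3, which are apart between the Per1 sets. For these genes such an array must lie to 1 side of the rest of its label. Neither the rate of 5% nor the count of 4 can therefore be read as a finding for them. Myh7 was at 2.21 on E2 4, against 0.88 to 1.08 on the other E2 arrays, and Myoz2 was at 2.98 on E2 4, against 1.90 to 1.95. Csrp3 was at 1.17 on Dex+E2 3, against 0.61 to 0.65 on the other Dex+E2 arrays. Tpm2 was at 4.67 on Dex 3, against 5.42 to 5.48 on the other Dex arrays, while its other probe read 5.25 on Dex 3 and 5.12 to 5.18 on the other Dex arrays. Myom2 was at 1.88 on Dex 4, against 1.36 to 1.41 on the other Dex arrays, and Dex 4 does not go against its label.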

How the results depend on the processing

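The counts of called members were 0 in all 6 label comparisons under normexp, quantile scaling, the deposited series table, both other filters, probe averaging, slide as a fixed or random block and no trend in the variance prior. Leaving out each array in turn gave 0 to 0. Leaving out the 4 arrays that go against their label makes the Dex labels coincide with the higher Per1 level. That gave 5 members for Dex and 5 for Dex+E2 against vehicle and 3 for Dex+E2 against E2, and slide 1 alone gave 2. Chosen after seeing the data, leaving out 1 array more gave 3 to 5, 3 to 5 and 1 to 4 members for these comparisons, and 0 to 20 on slide 1 (1.13% to 3.17%, 1.41% to 3.85%, 1.09% to 2.23% and 0% to 37.6% of all genes), where 1 array then stands alone and is assumed to vary like the other label. Same-numbered arrays shared deviations in part, with correlations from -0.16 to 0.46 over 24 pairs. Of these pairs 13 had a correlation over 0.1 and 11 correlated best with their own number. With array number as a replicate block 0 members were called in any comparison. Of the member differences followed, Des for Dex+E2 against Dex changed sign to 0.0132 with slide as a fixed block, where the cause was not tested. The count of members apart between the Per1 sets was 4, or 3 with normexp and with quantile scaling, where Myom1 overlapped, and 4 to 5 when each array was left out, Myh6 joining without E2 1. In the series table Fhl2 took the place of Myom1. Signal over background limits Myl2 and Myoz1 most, the tested members closest to background.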
